A study of Rattus norvegicus with 372 samples.

Results

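Naproxen is a nonsteroidal anti-inflammatory drug with a carboxylic acid group that inhibits the cyclooxygenases, the enzymes that make prostaglandins. Primary rat hepatocytes were exposed to 2000 µM naproxen, the higher of its 2 concentrations in a panel of 14 chemicals, for 24 h. The treatment was chosen by its labelled chemical and concentration, which gave 6 wells, 3 in each of 2 batches, each read by a whole transcriptome (WT) and a surrogate transcriptome (ST) TempO-Seq assay, or 12 of 372 libraries in all. They were compared with all 9 vehicle wells of the same batches, 3 in batch 1 and 6 in batch 2, which had received 0.5% DMSO alone. Further WT contrasts used 6 wells with naproxen at 80 µM, 6 with WY14643 at 200 µM and 9 with culture medium without DMSO. Both assays read lysate of the same wells, so ST counts, which cover fewer genes, check the assay and are no further samples. Hepatocytes had been freshly isolated from male Wistar rats and were kept in collagen sandwich, in a medium that supplied insulin, dexamethasone and EGF to every well, and naproxen wells contained the same 0.5% DMSO. A batch was the hepatocytes of 1 rat with its own library construction and sequencing. The 3 wells of a batch are thus technical replicates, p-values measure the spread between wells, 2 rats are the only biological replicates, and effects of rat, library and run cannot be told apart. Naproxen wells shared a plate with 3 vehicle wells in each batch.

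As background, fatty acids and a number of drugs with a carboxylic acid group can bind PPARα, the nuclear receptor that switches on fatty acid oxidation in liver. With its partner RXR it sits on direct repeats of a hexamer, and its rodent targets include the CYP4A hydroxylases, peroxisomal and mitochondrial β-oxidation enzymes, acyl-CoA thioesterases and fatty acid binding proteins. Cultured hepatocytes also make most plasma proteins, clotting factors and complement components, and answer drug stress through the factors CAR, PXR, NRF2, ATF4 and p53. Lists of genes with these roles were used to order the results.

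Naproxen wells had 6413390 to 7427805 reads by WT assay and vehicle wells 5492941 to 8264980, so the depth of the groups overlapped. The reads are not single molecules, and intervals given for ratios of counts cover counting error only. Levels are CPM, the counts of a gene relative to the total of its well over the genes tested, after TMM scaling. They can be compared between wells for a gene but not between genes, since each gene is read by its own ligated probe. Of 10 hepatocyte marker genes, 8 were on the assay and each had counts in both groups. Their summed level was 36060 to 43500 CPM with vehicle and 19040 to 21110 CPM with naproxen, so the preparation carried the labelled cell type but less of its marker RNA after treatment. Summed markers of Kupffer cells and leukocytes were 81.4 to 127 CPM with vehicle and 81.8 to 118 CPM with naproxen. These sums overlapped, although 5 of 8 tested members were lower with naproxen and 1 was higher. Stellate cell and fibroblast markers came to 237 to 403 CPM and 160 to 317 CPM in the same order, endothelial markers to 3.75 to 8.57 CPM and 3.37 to 7.92 CPM, and cholangiocyte markers to 114 to 140 CPM and 48.6 to 53.5 CPM. Col1a1 had no count in any well of batch 2 or in the naproxen wells of batch 1. In bulk RNA of a well, fewer cells of a type and less RNA per cell cannot be told apart.

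At an adjusted p under 0.05, naproxen called 5482 of 10191 genes tested as differentially expressed genes (DEGs), of which 2812 rose and 2670 fell. Over all genes tested, 27.6% were called higher and 26.2% lower, and these shares are the background for list counts of the fit by well. Most changes were small, and only 1389 DEGs differed by at least 2-fold, 539 higher (5.29%) and 850 lower (8.34%). When each batch was fitted by itself, 3798 genes were called in batch 1 and 4954 in batch 2. In both batches and the joint fit, 2976 genes (29.2% of those tested) were called with the same sign, 1517 higher and 1459 lower. With the wells of each rat summed, so that n was 2 rats, 3917 genes were called, 1948 higher and 1969 lower of 10191 tested. These counts are the background for list counts summed per rat. That fit took its spread from all treatments together. Of the 3917 genes, 3913 were also DEGs of the fit by well with the same sign. For comparison, culture medium without DMSO differed from vehicle in 1285 genes (12.6% of those tested), 765 higher in medium and 520 lower. Of the 1285 genes, 95 differed by at least 2-fold.

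**Figure D1:**
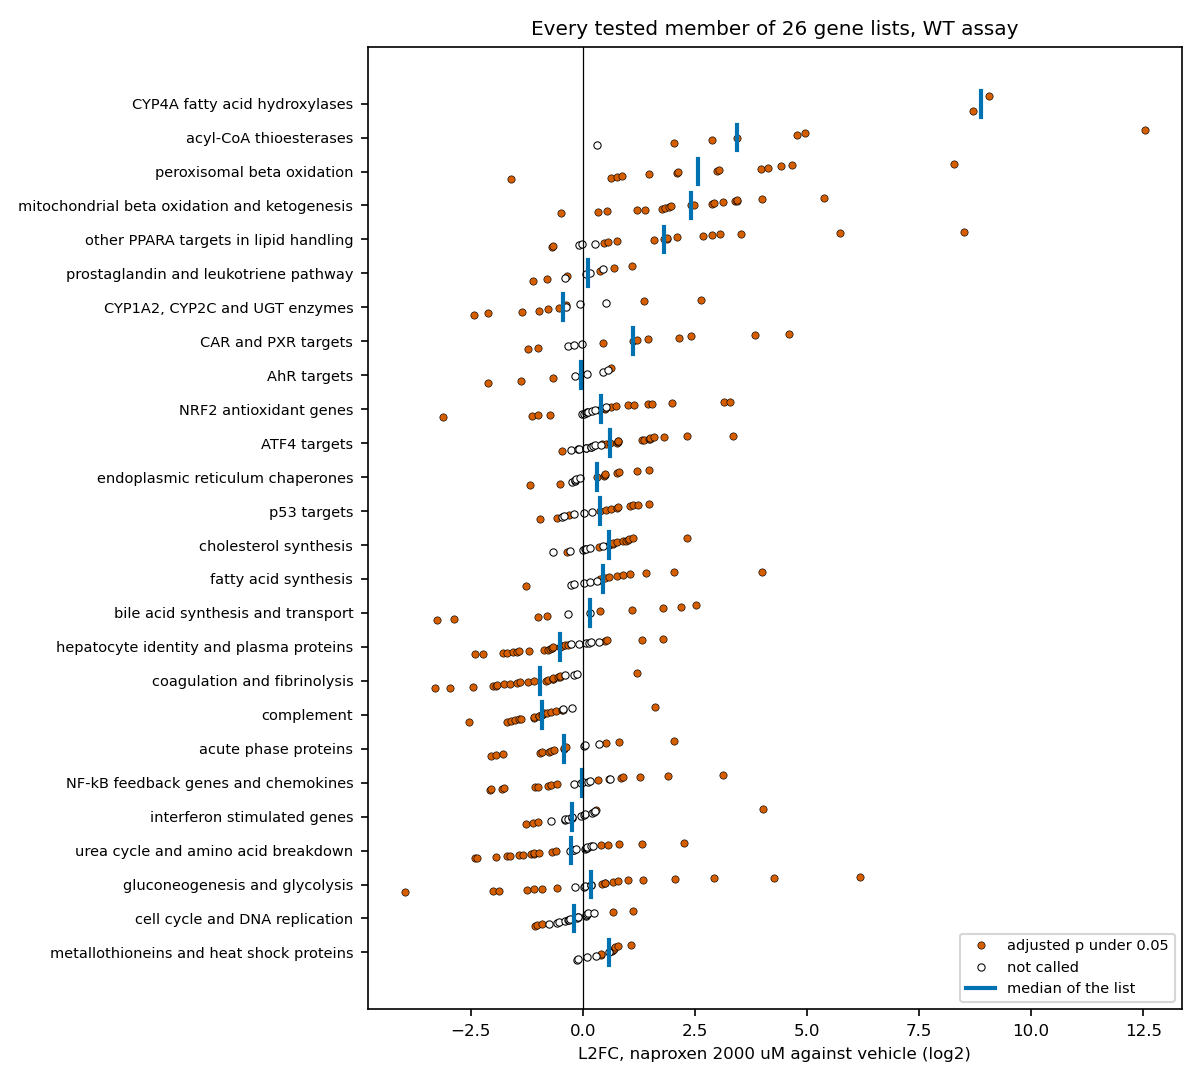
L2FC (log2, x axis) of every tested member of 26 gene lists (rows) in naproxen 2000 µM against vehicle by WT assay. Filled points are genes with an adjusted p under 0.05, open points are genes not called and blue ticks are list medians; the medians run from 8.88 for CYP4A hydroxylases to -0.96 for coagulation and fibrinolysis, and the points of Acot1 and Pdk4, farthest right in their rows, rest on vehicle wells with few or no reads.

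The lists with the highest median L2FC were those of lipid genes. Over 5 lists of lipid genes, 92 symbols were listed, 74 were on the assay and 61 passed a filter of a mean of 10 counts over all wells, so some could pass through treated wells alone. Of those tested, 53 rose (86.9%), 45 of them at least 2-fold, and 4 fell. With counts summed per rat, 52 were higher and 1 lower, where 1948 of all 10191 genes were higher and 1969 lower. Cyp4a1, a microsomal enzyme that hydroxylates fatty acids at the omega carbon, had between 835 and 1252 CPM (median 879) with naproxen and between 0.832 and 2.39 CPM (median 1.61) with vehicle (L2FC 9.07 ± 0.39, adjusted p = 1.08e-51). For Cyp4a2, which catalyses the same kind of reaction, the wells held 3983 to 6178 CPM (median 4505) in naproxen wells, against 7.96 to 13.2 CPM (median 10.3) in vehicle wells (L2FC 8.70 ± 0.35). Every naproxen well lay far above every vehicle well for both genes. Reads of such close paralogs may be split uncertainly between the copies, and of 6 symbols listed for the family 3 were on the assay and 2 passed the filter.

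Fabp1, the liver fatty acid binding protein that carries fatty acids through the cytosol, had between 1161 and 2240 CPM (median 1767) with naproxen and between 17.4 and 61.8 CPM (median 24.4) with vehicle (L2FC 5.74 ± 0.29, adjusted p = 4.77e-43). Its promoter is shown because it was the only one among 74 promoters matched to the lipid lists that held the repeat searched for, which was a pair of AGGNCA hexamers 1 base apart on either strand. That repeat was in 139 of 33469 promoter windows of RefSeq (0.415%), each reaching from 250 bases before to 50 bases after the start. The window lies at chr4:104749090-104749389 of build GRCr8 on the plus strand, and capitals mark the match, which runs from -77 to -65 relative to the start and reads as the repeat on the opposite strand.
Fabp1 promoter: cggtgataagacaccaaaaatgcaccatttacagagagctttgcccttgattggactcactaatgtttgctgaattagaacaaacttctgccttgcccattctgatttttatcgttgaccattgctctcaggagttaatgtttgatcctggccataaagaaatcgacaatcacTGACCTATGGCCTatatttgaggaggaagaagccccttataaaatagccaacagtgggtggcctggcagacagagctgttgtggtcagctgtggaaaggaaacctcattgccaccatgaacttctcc
The match describes letters of this window and is not a measured binding site. Of 46 promoters of lipid list genes that rose, 1 held the repeat.

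Peroxisomal β-oxidation shortens long fatty acids and yields hydrogen peroxide. Of 14 tested members, 13 rose and 1 fell (median L2FC 2.56, against 0.02 over all genes). Ehhadh, the bifunctional enzyme of the pathway, had between 440 and 761 CPM (median 574) with naproxen and between 0.713 and 3 CPM (median 1.65) with vehicle (L2FC 8.28 ± 0.27, adjusted p = 4.58e-67). The groups did not overlap. Pex11a, which takes part in the division of peroxisomes, rose by 4.67 ± 0.18 on the log2 scale, the acyl-CoA synthetase Acsl1 by 4.42 ± 0.17, the isomerase Ech1 by 4.13 ± 0.16 and the carnitine acyltransferase Crot by 3.04 ± 0.11. Cat, the catalase that breaks down hydrogen peroxide, rose by 2.09 ± 0.11. The exception was Acox2, the oxidase for bile acid intermediates and branched chains, which had between 4.04 and 5.48 CPM (median 4.66) with naproxen and between 7.67 and 23.8 CPM (median 11.8) with vehicle and fell in both batches (L2FC -1.60 ± 0.21, adjusted p = 1.59e-11).

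Mitochondrial β-oxidation and ketogenesis moved the same way, with 18 of 19 members higher and a median L2FC of 2.41. Cpt1b, the carnitine palmitoyltransferase typical of muscle, had between 106 and 154 CPM (median 146) with naproxen and between 1.16 and 5.04 CPM (median 3.58) with vehicle (L2FC 5.38 ± 0.19, adjusted p = 8.71e-62). Its liver counterpart Cpt1a, the gate for fatty acid entry into mitochondria, had 42.9 to 65.4 CPM (median 48.6) in naproxen wells, against 3.18 to 7.57 CPM (median 4.16) in vehicle wells (L2FC 3.44 ± 0.20). The thiolase Acaa2 rose by 4.00 ± 0.16 on the log2 scale and the isomerase Eci1 by 3.43 ± 0.15. Bdh1, which interconverts the ketone bodies, was the 1 member called lower (L2FC -0.48 ± 0.17), but its L2FC was 0.01 in batch 1 and -0.87 in batch 2, and it was not called with counts summed per rat (adjusted p = 0.266).

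**Figure D2:**
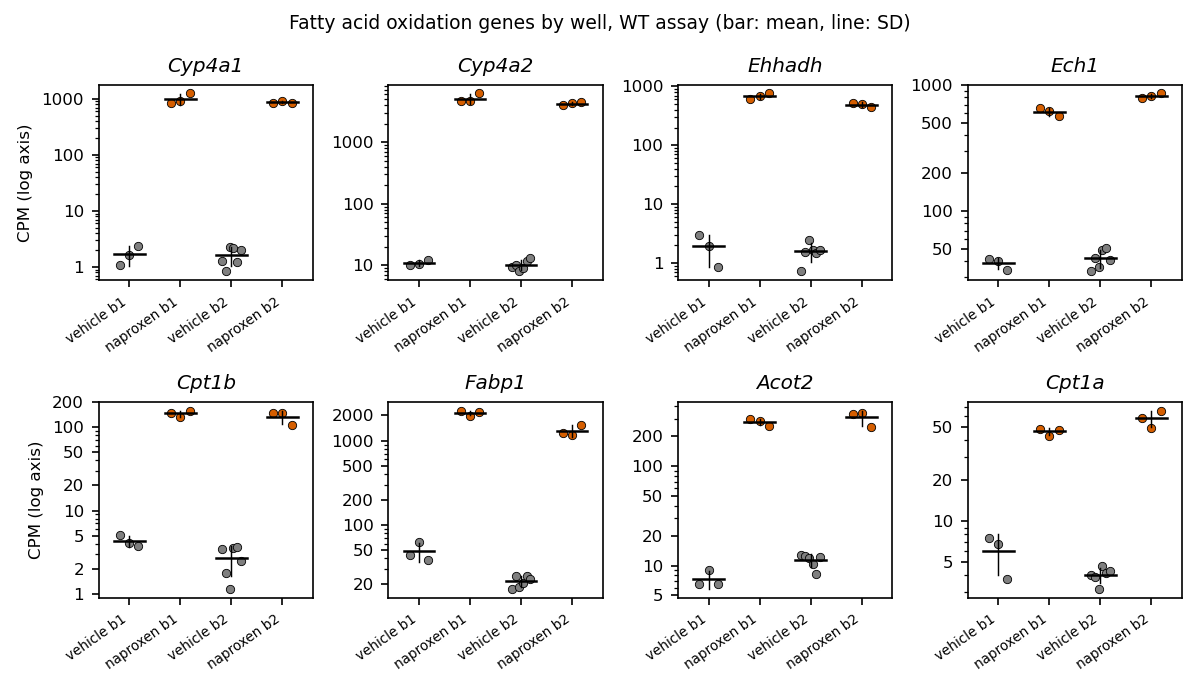
Level in CPM (log axis) of 8 fatty acid oxidation genes in each well of the WT assay, by group and batch (b1, b2). Points are wells (3 with naproxen and 3 or 6 with vehicle per batch), bars are means and vertical lines are SD; in every panel each naproxen well lies above each vehicle well, as for Ehhadh with 440 CPM or more against 3 CPM or less.

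Acyl-CoA thioesterases release free fatty acids from acyl-CoA, and 6 of 7 tested members rose, each at least 2-fold (median 3.44). Acot1, the cytosolic member, gave 2 reads in all 9 vehicle wells together and 13414 in the 6 naproxen wells, a ratio of 9870 after scaling (95% interval 2730 to 81500, for counting error only). The 2 reads came from 1 vehicle well of each batch, and with each vehicle well left out in turn the ratio ranged from 8540 to 17900, so its size is not well determined. The 6 naproxen wells had 338, 325 and 394 CPM in batch 1 and 305, 292 and 275 CPM in batch 2. Mitochondrial Acot2 had between 249 and 346 CPM (median 292) with naproxen and between 6.48 and 12.8 CPM (median 10.4) with vehicle (L2FC 4.96 ± 0.17, adjusted p = 2.03e-63). The peroxisomal members Acot4 (L2FC 4.77 ± 0.19) and Acot3 (L2FC 3.44 ± 0.17) rose too, while Acot13 was not called (L2FC 0.31 ± 0.18, adjusted p = 0.14). Acot1 to Acot4 are close copies, and reads may be shared between them.

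Among other PPARα targets in lipid handling, 14 of 19 rose and 2 fell. Pdk4, the kinase that shuts off pyruvate dehydrogenase, gave 10 reads over the vehicle wells and 2556 over the naproxen wells, a ratio of 376 (95% interval 204 to 785). Pnpla2, the adipose triglyceride lipase, had between 170 and 340 CPM (median 229) with naproxen and between 14.2 and 29.7 CPM (median 20.7) with vehicle (L2FC 3.52 ± 0.15, adjusted p = 5.78e-50). Vnn1, a pantetheinase, rose by 3.05 ± 0.14 on the log2 scale and Plin2, which coats lipid droplets, by 2.89 ± 0.10. Ppara itself was called in the joint fit (L2FC 0.48 ± 0.20, adjusted p = 0.0386) but not with counts summed per rat (adjusted p = 0.22). The members called lower were binding proteins of other tissues, Fabp2 (L2FC -0.69 ± 0.22) of intestine and Fabp4 (L2FC -0.66 ± 0.19) of adipose tissue, and neither was called with counts summed per rat (adjusted p = 0.0591 and 0.145). Fgf21, a hormone of the fasting liver that is also an ATF4 target, had 104 to 145 CPM (median 126) in naproxen wells, against 26.3 to 59.1 CPM (median 38.6) in vehicle wells (L2FC 1.59 ± 0.20).

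The lower concentration of naproxen, 80 µM, was compared directly to show what the higher one added. Naproxen at 2000 µM was higher than at 80 µM in 2417 genes (23.7%) and lower in 2413 (23.7%). In the lipid lists, 47 of 61 members were higher at 2000 µM and 4 lower, with a median difference of 1.27 on the log2 scale. The lower ones were Acox2 (difference -2.88 ± 0.22), Bdh1 (-1.50 ± 0.19), Fabp2 (-0.69 ± 0.24) and Fabp4 (-0.53 ± 0.21). Cyp4a1 already stood at 13.3 to 184 CPM (median 93.1) at 80 µM and was 3.51 ± 0.33 higher (log2) at 2000 µM. For Ehhadh the 80 µM wells had 3.35 to 79.8 CPM (median 40.4) and the difference was 4.14 ± 0.24. Every 80 µM well was above every vehicle well for both genes, and the batches stood apart at this concentration, with Cyp4a1 at 145, 157 and 184 CPM in batch 1 and 13.3, 15.2 and 40.8 CPM in batch 2. Whether the batches differ at 80 µM was not tested. Pnpla2, with 20.2 to 31.3 CPM (median 26.4) at 80 µM, overlapped vehicle there, as did Acot1 with 0 to 0.869 CPM (median 0.227) and Pdk4 with 0 to 1.05 CPM (median 0.312).

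WY14643, a PPARα agonist used at 200 µM in the panel, was set beside naproxen by a direct contrast, although the concentrations differ. In each batch the WY14643 wells were on another plate than the naproxen wells, and that plate held no vehicle well in batch 1, where chemical and plate cannot be told apart. In batch 2 both plates held 3 vehicle wells, and plate was not a term of the fit. Over all genes, naproxen was higher in 2288 (22.5%) and lower in 2294 (22.5%). In the lipid lists, naproxen was lower for 49 of 61 members and higher for 3, with a median difference of -1.01 (log2). Cyp4a1 had 2753 to 4137 CPM (median 3473) with WY14643, and the difference of naproxen from it was -1.88 ± 0.30 on the log2 scale. Fabp1 reached 3597 to 11060 CPM (median 7405) with WY14643 (difference -2.0 ± 0.29). A few members did not follow, since Pnpla2 was 0.44 ± 0.16 higher with naproxen, and Acot2 differed by 0.09 ± 0.16 (adjusted p = 0.682) and Pdk4 by -0.46 ± 0.22 (adjusted p = 0.0757).

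**Figure D3:**
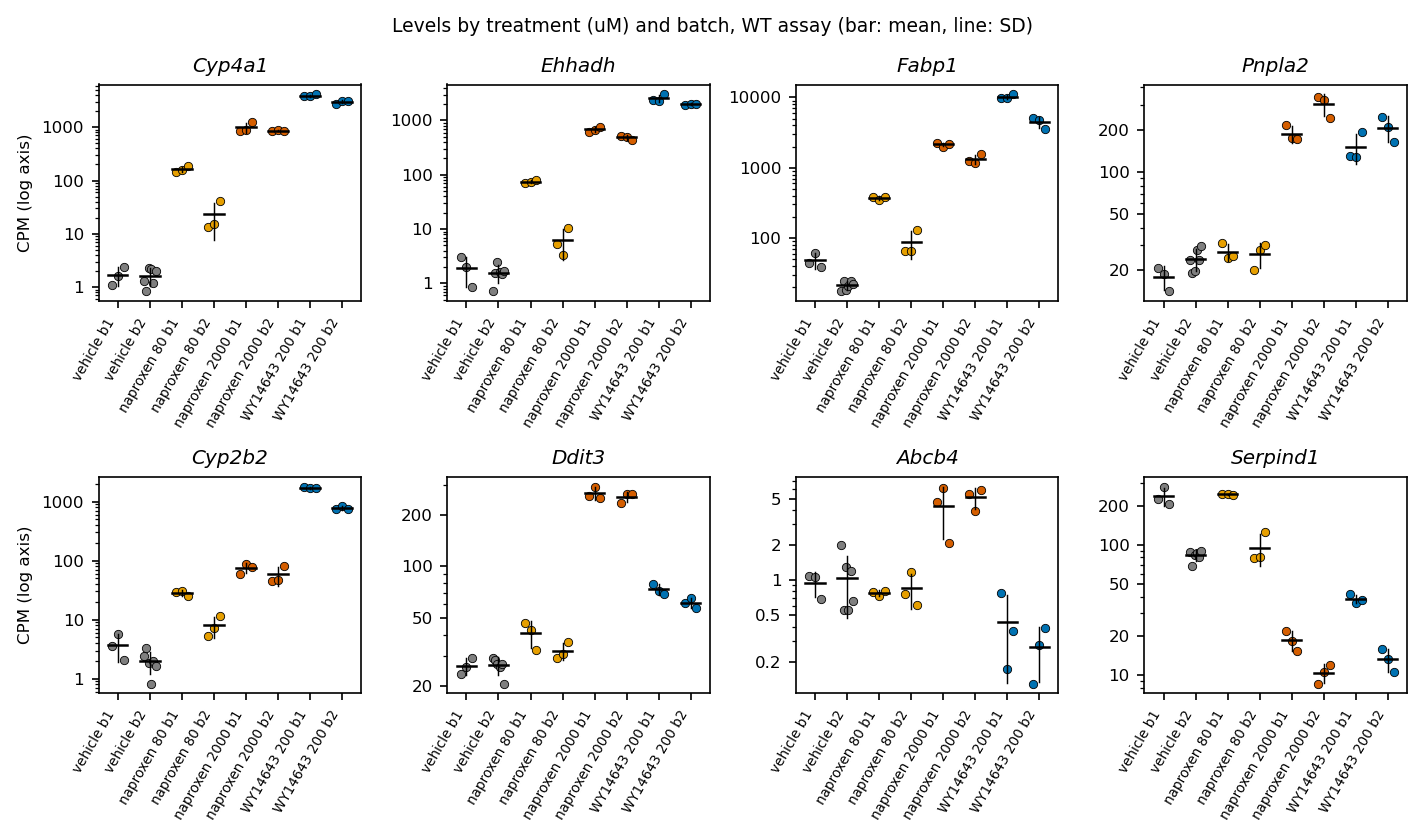
Level in CPM (log axis) of 8 genes in each well of the WT assay with vehicle, naproxen 80 µM, naproxen 2000 µM and WY14643 200 µM, by batch (b1, b2). Points are wells, bars means and vertical lines SD; Cyp4a1, Ehhadh and Fabp1 rise from vehicle over naproxen 80 and 2000 µM to WY14643, while Ddit3 is highest with naproxen 2000 µM (234 CPM or more) and Abcb4 is low with WY14643 (0.771 CPM or less).

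Drug-metabolising enzymes went both ways. Among targets of CAR and PXR, receptors that sense foreign chemicals, 8 of 13 rose and 2 fell (median 1.13). Cyp2b2, a classical CAR target, had between 45.2 and 88 CPM (median 69) with naproxen and between 0.825 and 5.71 CPM (median 2.05) with vehicle (L2FC 4.59 ± 0.29, adjusted p = 3.61e-33). It remained far under WY14643, which gave 733 to 1788 CPM (median 1256), a difference of -4.10 ± 0.27 on the log2 scale. Its close copy Cyp2b1 had few reads, 19 over the vehicle wells and 226 over the naproxen wells (ratio 17.5, 95% interval 10.9 to 29.6). Nr1i3, which encodes CAR, had 18.4 to 27.6 CPM (median 21.9) in naproxen wells, against 2.17 to 6.95 CPM (median 4.92) in vehicle wells (L2FC 2.15 ± 0.18), and the retinal dehydrogenase Aldh1a1 rose by 2.41 ± 0.32. The carboxylesterase Ces2a (L2FC -1.24 ± 0.21) and the efflux pump Abcc3 (L2FC -1.01 ± 0.16) fell.

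In people, naproxen itself is known to be cleared by CYP1A2 and CYP2C enzymes and by glucuronidation. Of 12 tested genes of these families, 7 fell and 2 rose, against 5 and 1 with counts summed per rat. Cyp1a2 had between 118 and 156 CPM (median 142) with naproxen and between 434 and 734 CPM (median 628) with vehicle (L2FC -2.12 ± 0.20, adjusted p = 2.44e-18), and no naproxen well overlapped vehicle. Cyp2c11, the form typical of male rats, had 10.6 to 20.4 CPM (median 13) in naproxen wells, against 36.2 to 169 CPM (median 53) in vehicle wells (L2FC -2.44 ± 0.33), and Cyp2c24 (L2FC -1.35 ± 0.28), Ugt2a3 (L2FC -0.79 ± 0.14) and Ugt2b15 (L2FC -0.53 ± 0.14) fell less. In contrast Cyp2c22 had between 1211 and 1542 CPM (median 1329) with naproxen and between 112 and 518 CPM (median 144) with vehicle (L2FC 2.64 ± 0.22, adjusted p = 3.02e-23). Cyp2c13 rose in the joint fit (L2FC 1.36 ± 0.34) but was not called with counts summed per rat (adjusted p = 0.131). Its level differed between the batches, with vehicle wells of batch 2 at 3.17 to 6.52 CPM and those of batch 1 at 32.1, 60.7 and 55.9 CPM. The CYP2C and UGT genes are multigene families, and counts of single members are uncertain where copies share sequence. Of 8 targets of AhR, the dioxin receptor, 1 rose and 3 fell, and the marker gene Cyp1a1 was not called (L2FC 0.09 ± 0.21). Cyp1b1, another AhR target, was not called either (L2FC 0.56 ± 0.48, adjusted p = 0.328).

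The prostaglandin and leukotriene pathway holds the drug's own targets. Of 32 listed genes 27 were on the assay, but only 10 passed the count filter, and Ptgs2, the inducible cyclooxygenase, was not among them. There were 3 members called in each direction, a share close to the background. Ptgs1, the constitutive cyclooxygenase, had between 1.14 and 3.44 CPM (median 1.43) with naproxen and between 0.939 and 3.39 CPM (median 2.42) with vehicle, and a change was not detectable at this depth (L2FC -0.41 ± 0.29, adjusted p = 0.229). Ptgr1, a reductase that inactivates leukotriene B4 and prostaglandins, had 39.1 to 167 CPM (median 82) in naproxen wells, against 85.6 to 394 CPM (median 268) in vehicle wells (L2FC -1.12 ± 0.21, adjusted p = 2.34e-06). The ranges overlapped over both batches, but within each batch all naproxen wells were lower. Abcc4, an exporter of prostaglandins, had 3.33 to 7.87 CPM (median 5.12) in naproxen wells, against 1.61 to 4.49 CPM (median 2.28) in vehicle wells (L2FC 1.10 ± 0.21). Ptgr2 (L2FC 0.69 ± 0.19) and the synthase Ptges2 (L2FC 0.38 ± 0.08) rose, and Cyp4f4, which hydroxylates leukotrienes (L2FC -0.79 ± 0.17), and the leukotriene A4 hydrolase Lta4h (L2FC -0.36 ± 0.09) fell. The adjusted p was 0.243 for the synthase Ptges3 (L2FC 0.46 ± 0.33), 0.319 for the phospholipase Pla2g6 (L2FC 0.15 ± 0.12) and 0.873 for Pla2g2a (L2FC 0.06 ± 0.26).

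Stress genes rose in part. ATF4 is the factor of the integrated stress response, and 16 of 27 of its listed targets rose and 1 fell (median 0.60). Ddit3, which encodes the proapoptotic factor CHOP, had between 234 and 292 CPM (median 260) with naproxen and between 20.7 and 29.3 CPM (median 26.9) with vehicle (L2FC 3.34 ± 0.16, adjusted p = 3.4e-44). Trib3, a pseudokinase induced by CHOP and ATF4, had 251 to 373 CPM (median 317) in naproxen wells, against 45.1 to 81.7 CPM (median 53.6) in vehicle wells (L2FC 2.31 ± 0.15), and Cebpb rose by 1.81 ± 0.11. All 6 naproxen wells were above all 9 vehicle wells for these genes. Phgdh, an enzyme of serine synthesis, had an L2FC of -0.47 ± 0.19 (adjusted p = 0.0335), and its call was lost when wells were left out or summed per rat. Chac1 was not called (L2FC 0.40 ± 0.19, adjusted p = 0.0589). In culture medium against vehicle, 16 of the 27 ATF4 targets were higher and 0 lower. Over all 10191 genes, 765 were higher in medium and 520 lower. The ATF4 list thus also differed between medium and DMSO, which naproxen and vehicle wells contained alike.

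For chaperones and quality control of the endoplasmic reticulum, 8 of 15 members rose and 2 fell. When counts were summed per rat, 5 were higher and 1 lower. Herpud1, which takes part in the degradation of misfolded proteins, had between 1385 and 1776 CPM (median 1630) with naproxen and between 403 and 743 CPM (median 581) with vehicle (L2FC 1.47 ± 0.12, adjusted p = 5.72e-22), and Dnajc3 rose by 1.21 ± 0.11 and Hyou1 by 0.80 ± 0.16 on the log2 scale. Edem1, which directs misfolded glycoproteins to degradation, went the other way, with 76.7 to 132 CPM (median 116) in naproxen wells, against 216 to 273 CPM (median 251) in vehicle wells (L2FC -1.17 ± 0.13). Xbp1 fell by 0.52 in the joint fit but was not called in either batch alone (adjusted p = 0.348 and 0.0775). Among targets of p53, 9 of 17 rose and 3 fell, against 8 and 0 with counts summed per rat. Sesn2, a leucine sensor, rose with an L2FC of 1.48 ± 0.13, Gadd45a with 1.22 ± 0.13, Mdm2, the ligase that degrades p53, with 1.13 ± 0.13 and Pmaip1 with 1.05 ± 0.24. Cdkn1a, the p21 cell cycle inhibitor, rose less (L2FC 0.63 ± 0.18, adjusted p = 0.0503 with counts summed per rat), and Fas (L2FC -0.96 ± 0.36) and Btg2 (L2FC -0.58 ± 0.17) fell in the joint fit but not with counts summed per rat (adjusted p = 0.0771 and 0.0669). Sesn2 is on the list of ATF4 targets too.

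Of 25 NRF2 antioxidant genes, 13 rose and 4 fell (median 0.40), and the glutathione transferases split. The glutathione transferase Gsta2 had between 111 and 536 CPM (median 251) with naproxen and between 14.5 and 30.9 CPM (median 27.2) with vehicle (L2FC 3.28 ± 0.24, adjusted p = 2.67e-26), and its relative Gsta5 rose by 3.14 ± 0.27. Ephx1, microsomal epoxide hydrolase, had 3001 to 3550 CPM (median 3261) in naproxen wells, against 728 to 944 CPM (median 806) in vehicle wells (L2FC 1.98 ± 0.12). Gstm3, another glutathione transferase, fell, with 4.2 to 7.92 CPM (median 5.2) in naproxen wells, against 40 to 65.4 CPM (median 48.5) in vehicle wells (L2FC -3.13 ± 0.22). Nqo1, a standard NRF2 readout, rose only slightly (L2FC 0.64 ± 0.15), Hmox1 was not called (L2FC 0.51 ± 0.26, adjusted p = 0.0915), and Gclc, which limits glutathione synthesis, fell (L2FC -0.73 ± 0.14). Nfe2l2, which encodes NRF2, fell with an L2FC of -0.67 ± 0.14. Gpx2 fell by 1.13 ± 0.21 on the log2 scale, and its vehicle level was 3.04 to 4.68 CPM in batch 1 and 34.9 to 41.7 CPM in batch 2. Of 13 metallothionein and heat shock genes, 8 rose and 0 fell, against 5 and 0 with counts summed per rat. Those that rose in the fit by well included the small heat shock protein Hspb1 (L2FC 0.77 ± 0.13), the mitochondrial chaperonin Hspd1 (L2FC 0.69 ± 0.15) and Dnajb1 (L2FC 0.65 ± 0.13). Mt1 was called in the joint fit (L2FC 1.08 ± 0.36) but not with counts summed per rat (adjusted p = 0.19), while Mt2A (L2FC 0.57 ± 0.32, adjusted p = 0.129) and Hspa8 (L2FC 0.30 ± 0.14, adjusted p = 0.0704) were not called.

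Genes of lipid synthesis moved unevenly. In cholesterol synthesis 12 of 20 genes rose and 1 fell in the fit by well, but with counts summed per rat 5 were higher and 1 lower, and 4 were called in each batch alone with the same sign. Insig1, which holds back the sterol sensor SCAP, had between 2921 and 3788 CPM (median 3430) with naproxen and between 540 and 966 CPM (median 643) with vehicle (L2FC 2.31 ± 0.14, adjusted p = 9.46e-35). Mvd (L2FC 1.13 ± 0.18) and the sterol carrier Stard4 (L2FC 0.96 ± 0.13) rose, Nsdhl fell (L2FC -0.37 ± 0.07), and Cyp51, the lanosterol demethylase, was not called (L2FC 0.45 ± 0.21, adjusted p = 0.0692). In fatty acid synthesis 10 of 16 genes rose and 1 fell, and 7 were called in each batch alone with the same sign. Elovl6, an elongase of long fatty acids, had between 16.7 and 32.3 CPM (median 21.3) with naproxen and between 0.55 and 2.5 CPM (median 1.16) with vehicle (L2FC 3.99 ± 0.30, adjusted p = 1.27e-25), and the desaturases Scd (L2FC 2.04 ± 0.18) and Scd2 (L2FC 1.40 ± 0.26) rose. Fasn, fatty acid synthase, was not called (L2FC 0.32 ± 0.16), with an L2FC of -0.30 in batch 1 and 0.81 in batch 2. Thrsp, a lipogenic factor, fell (L2FC -1.26 ± 0.18), and its difference between 2000 and 80 µM was -2.48 ± 0.19. With medium against vehicle, 6 cholesterol and 8 fatty acid synthesis genes were higher and 0 of either list lower. Over all 10191 genes, 765 were higher in medium and 520 lower. In that contrast Scd had an L2FC of 2.79 (adjusted p = 1.03e-32).

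Bile acid genes split, with 5 of 11 higher and 4 lower. Both uptake transporters that were tested fell. Slco1a1, an organic anion carrier, had between 0.562 and 2.99 CPM (median 1.55) with naproxen and between 8.17 and 26.2 CPM (median 12.1) with vehicle (L2FC -3.25 ± 0.27, adjusted p = 4.4e-23), and Slc10a1, the sodium-dependent bile acid carrier, had 0 to 0.632 CPM (median 0.226) in naproxen wells, against 1.02 to 3.33 CPM (median 2.36) in vehicle wells (L2FC -2.88 ± 0.40). Nr0b2, the repressor SHP that bile acids induce, had 4.92 to 7.47 CPM (median 6.23) in naproxen wells, against 0.428 to 1.71 CPM (median 1.07) in vehicle wells (L2FC 2.53 ± 0.30), and Abcb4, which moves phosphatidylcholine into bile, rose with an L2FC of 2.2 ± 0.27. With WY14643 the level of Abcb4 was 0.13 to 0.771 CPM (median 0.323), so naproxen exceeded it by 3.69 ± 0.37 on the log2 scale. These genes had few reads, and their wells have a wide counting error.

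Genes of plasma proteins and hepatocyte identity fell. Over 4 lists, 100 symbols were listed and 91 were tested. Of these 68 fell (74.7%), and 9 rose (9.89%). Among coagulation and fibrinolysis genes 20 of 24 fell and 1 rose (median -0.96), against 18 and 0 with counts summed per rat. Serpind1, heparin cofactor II, had between 8.57 and 21.9 CPM (median 13.7) with naproxen and between 68.8 and 280 CPM (median 88.5) with vehicle (L2FC -3.31 ± 0.19, adjusted p = 5.5e-36). F10, coagulation factor X, had 172 to 243 CPM (median 194) in naproxen wells, against 602 to 967 CPM (median 865) in vehicle wells (L2FC -2.01 ± 0.15). Klkb1, plasma prekallikrein, fell with an L2FC of -2.46 ± 0.19, and F3, tissue factor, with -2.97 ± 0.27. In all 4 genes every naproxen well was under every vehicle well. Fga, which encodes a fibrinogen chain, was not called (L2FC -0.40 ± 0.19, adjusted p = 0.0679).

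Of 21 complement genes, 18 fell and 1 rose (median -0.90). Mbl2, a mannose-binding lectin, had between 21.7 and 27 CPM (median 24.5) with naproxen and between 118 and 151 CPM (median 140) with vehicle (L2FC -2.54 ± 0.11, adjusted p = 7.23e-53). C1s (L2FC -1.61 ± 0.12), C4bpb (L2FC -1.69 ± 0.20) and C3, the central component (L2FC -1.43 ± 0.13), fell as well. C9, which forms the membrane pore, was the exception and rose, with 70.7 to 117 CPM (median 86) in naproxen wells, against 13.9 to 63.4 CPM (median 24.5) in vehicle wells (L2FC 1.60 ± 0.19), and C4b was not called (L2FC -0.45 ± 0.23, adjusted p = 0.0984). Among 17 acute phase genes, 11 fell and 3 rose. Itih3 had 298 to 392 CPM (median 345) in naproxen wells, against 1054 to 1861 CPM (median 1455) in vehicle wells (L2FC -2.05 ± 0.12), and haptoglobin Hp (L2FC -1.94 ± 0.19) and A2m (L2FC -1.79 ± 0.20) also fell. Crp, C-reactive protein, rose, with 270 to 507 CPM (median 413) in naproxen wells, against 69.5 to 121 CPM (median 88.4) in vehicle wells (L2FC 2.03 ± 0.20), and ceruloplasmin Cp rose with an L2FC of 0.81 ± 0.14.

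Of 29 genes of hepatocyte identity and other plasma proteins, 19 fell and 4 rose. Fetub had between 418 and 741 CPM (median 576) with naproxen and between 2139 and 3174 CPM (median 2671) with vehicle (L2FC -2.23 ± 0.13, adjusted p = 3e-37), Apoa5 fell with an L2FC of -1.79 ± 0.17 and Apoa1, the main protein of HDL, with -1.71 ± 0.12. Albumin fell less, with an L2FC of -0.68 ± 0.10. Cebpa, a transcription factor of hepatocytes, rose, with 71.6 to 86.9 CPM (median 76.9) in naproxen wells, against 14.8 to 27.5 CPM (median 23.6) in vehicle wells (L2FC 1.79 ± 0.12). Tat, a tyrosine aminotransferase induced by glucocorticoids, rose (L2FC 1.32 ± 0.13). At 2000 µM, 77 of the 91 members of these 4 lists were lower than at 80 µM and 6 higher, against 23.7% of all genes each way. Beside WY14643, 70 were lower with naproxen and 5 higher, against 22.5% of all genes each way. Of 8 tested hepatocyte markers, which are on these lists or that of the urea cycle, 6 fell and 1 rose. Of the markers of leukocytes and Kupffer cells, 5 of 8 tested fell and 1 rose, and their part in these results was not tested.

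**Figure D4:**
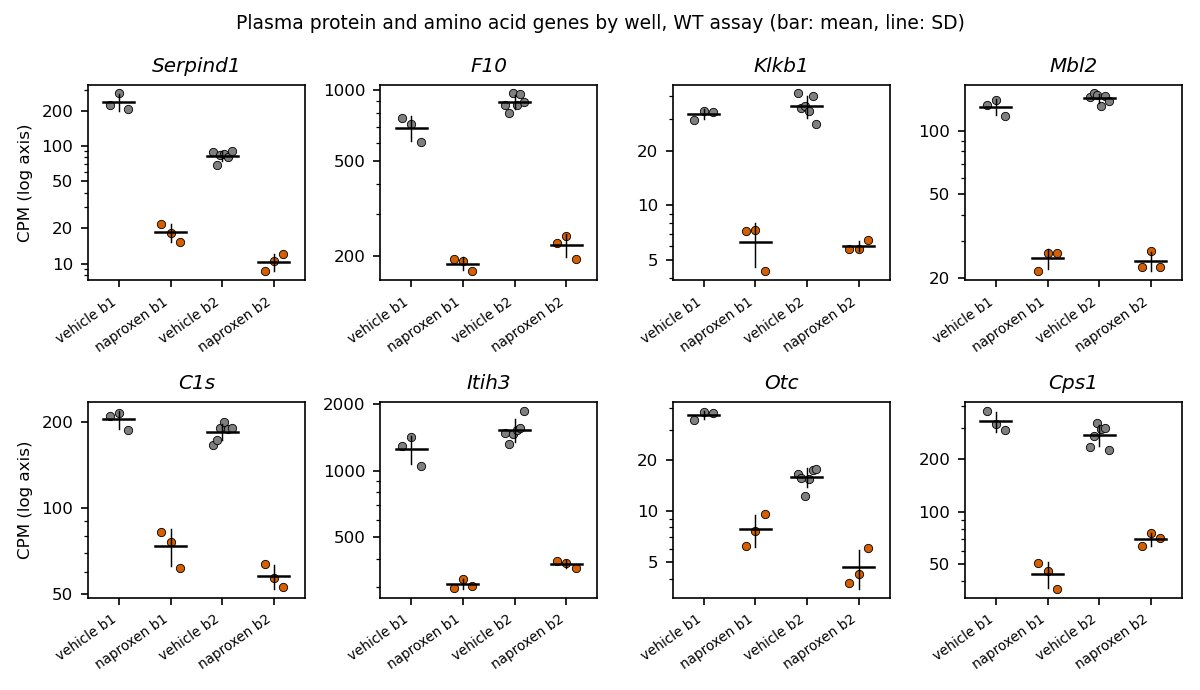
Level in CPM (log axis) of 8 genes of plasma proteins and amino acid metabolism in each well of the WT assay, by group and batch (b1, b2). Points are wells, bars means and vertical lines SD; in each panel every naproxen well lies below every vehicle well of its batch, as for Serpind1 with 21.9 CPM or less against 68.8 CPM or more.

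Nitrogen and glucose metabolism were also shifted. Of 28 genes of the urea cycle and amino acid breakdown, 13 fell and 5 rose. Cps1, which starts the urea cycle, had between 36.3 and 75.4 CPM (median 57.2) with naproxen and between 226 and 377 CPM (median 297) with vehicle (L2FC -2.36 ± 0.18, adjusted p = 2.38e-26), and Otc, ornithine transcarbamylase, fell with an L2FC of -1.95 ± 0.20. Oat, ornithine aminotransferase, rose instead (L2FC 2.25 ± 0.18). In the list of gluconeogenesis and glycolysis 11 of 23 rose and 7 fell. G6pc, the catalytic subunit that releases glucose, had between 28 and 49.6 CPM (median 36.5) with naproxen and between 0.179 and 0.825 CPM (median 0.434) with vehicle (L2FC 6.18 ± 0.33, adjusted p = 8.91e-41), and Pck1, the cytosolic enzyme that feeds gluconeogenesis, had 53.4 to 114 CPM (median 78.4) in naproxen wells, against 2.6 to 6.43 CPM (median 3.71) in vehicle wells (L2FC 4.26 ± 0.23). Pklr, the liver pyruvate kinase of glycolysis, fell, with 0.38 to 1.5 CPM (median 0.59) in naproxen wells, against 7.41 to 15.4 CPM (median 11.1) in vehicle wells (L2FC -3.98 ± 0.29). Hk1, a hexokinase, fell (L2FC -2.01 ± 0.29), and Igfbp1, a secreted binding protein that insulin represses, rose, with 6318 to 10390 CPM (median 8510) in naproxen wells, against 731 to 1782 CPM (median 1351) in vehicle wells (L2FC 2.93 ± 0.23). With medium against vehicle, 10 members of this list were higher and 0 lower, where 765 of all 10191 genes were higher and 520 lower.

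Immune genes showed no common direction. Of 22 NF-κB feedback genes and chemokines, 7 rose and 9 fell, shares of 31.8% and 40.9%. Cxcl12 had between 73 and 122 CPM (median 96.2) with naproxen and between 6.22 and 28.2 CPM (median 9.08) with vehicle (L2FC 3.12 ± 0.21, adjusted p = 5.39e-30), and Cxcl10 had 131 to 194 CPM (median 163) in naproxen wells, against 31.2 to 62.7 CPM (median 44.7) in vehicle wells (L2FC 1.89 ± 0.35). Ccl2 (L2FC -2.07 ± 0.40) and Tnfaip2 (L2FC -2.05 ± 0.15) fell. With medium against vehicle, 0 of these 22 genes were higher and 13 lower (median -0.45). Over all 10191 genes, 765 were higher in medium and 520 lower. Cxcl10 was lower in medium, with an L2FC of -1.81 (adjusted p = 4.12e-05). Of 17 interferon stimulated genes 2 rose and 3 fell, fewer than the background in both directions, and with counts summed per rat 1 was higher and 2 were lower. Gbp2 (L2FC -1.26 ± 0.23) and Gbp5 (L2FC -1.0 ± 0.15) fell. Rsad2 was called higher (L2FC 4.01 ± 0.63), but its naproxen wells had 0.579, 0.747 and 1.94 CPM in batch 1 and 2.53, 4.4 and 26.8 CPM in batch 2. Without the third naproxen well of batch 2 its L2FC was 2.81. Isg15 was not called (L2FC -0.72 ± 0.56, adjusted p = 0.278), and 1 vehicle well of batch 1 had 114 CPM where the others of that batch had 7.09 and 7.33 CPM. Of 20 genes of the cell cycle and DNA replication, 2 rose and 3 fell. Cdk2 (L2FC 1.12 ± 0.17) and thymidylate synthase Tyms (L2FC 0.66 ± 0.11) rose, Mki67, the proliferation marker Ki-67, fell (L2FC -1.07 ± 0.32), and Top2a was not called (L2FC -0.77 ± 0.35, adjusted p = 0.0573).

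The 10 largest rises and falls were taken among genes called in both batches with a mean of at least 50 counts per well. Acot1, Cyp4a1, Cyp4a2, Pdk4, Ehhadh, Fabp1 and G6pc, described with their lists, were among the rises. Sema3e, a secreted guidance factor, had between 34.1 and 53.5 CPM (median 48.1) with naproxen and between 0.171 and 1.3 CPM (median 0.834) with vehicle (L2FC 5.78 ± 0.23, adjusted p = 4.77e-55). Mmp13, a collagenase, gave no read in the vehicle wells of batch 1 and 1180 reads in its naproxen wells, at least 384-fold higher against a floor of 3 counts over the vehicle wells, and in batch 2 its L2FC was 5.78. A transcript known only as AABR07072203.1 rose with an L2FC of 5.57 ± 0.28. Vil1, which bundles actin in microvilli, had the largest fall, with 0.253 to 1.01 CPM (median 0.72) in naproxen wells, against 15 to 24.1 CPM (median 22) in vehicle wells (L2FC -4.99 ± 0.23, adjusted p = 2.2e-47). It was followed by Pdlim2, an adaptor of the actin cytoskeleton (L2FC -4.77 ± 0.23), the laminin receptor subunit Itgb4 (L2FC -4.71 ± 0.27), and Tagln, the actin-binding protein transgelin (L2FC -4.48 ± 0.33). Acta1, skeletal muscle actin, had 8.19 to 23.9 CPM (median 13) in naproxen wells, against 151 to 277 CPM (median 230) in vehicle wells (L2FC -3.98 ± 0.26), and Ankrd1, a cofactor induced by mechanical strain, fell with an L2FC of -3.57 ± 0.27. The sialyltransferase St8sia3 (L2FC -3.95 ± 0.30), the serpin Serpinb1a (L2FC -3.90 ± 0.31), the pyrimidine-degrading enzyme Dpys (L2FC -3.87 ± 0.21) and the neuropeptide Calcb (L2FC -3.86 ± 0.33) completed the 10 largest falls. Of these 10, Tagln was higher in medium than with vehicle (L2FC 1.62, adjusted p = 3.03e-09), and Itgb4 (L2FC -0.72, adjusted p = 0.000664), Calcb (L2FC -0.69, adjusted p = 0.0203) and Dpys (L2FC -0.48, adjusted p = 0.0127) were lower. Beside these falls, 3 of 4 tested markers of stellate cells and fibroblasts fell and 0 rose. Of 4 tested cholangiocyte markers 3 fell, among them Epcam (L2FC -2.79 ± 0.17), and 1 rose. The part of these cells in the falls was not tested.

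The response was compared between the batches, which hold rat, library and run together, by a test of the interaction of batch and treatment. The test called 168 of 10191 genes (1.65%), so at this number of wells a difference between batches was called for few genes. Cyp2c11 fell by 3.73 on the log2 scale in batch 1 and by 1.47 in batch 2 (interaction, adjusted p = 6.68e-07). Naproxen wells of both rats reached a like level, 12.7, 11.5 and 10.6 CPM in batch 1 and 13.2, 14.4 and 20.4 CPM in batch 2, and vehicle wells differed, at 138 to 169 CPM in batch 1 and 36.2 to 53.9 CPM in batch 2. The same was seen for Cxcl12, which had 98.8, 82.2 and 73 CPM in batch 1 and 122, 119 and 93.7 CPM in batch 2 with naproxen and rose by 1.94 in batch 1 and 3.86 in batch 2 (interaction, adjusted p = 7.05e-07), from a vehicle level of 16.5 to 28.2 CPM in batch 1 and 6.22 to 9.12 CPM in batch 2. Gsta2 rose more in batch 1, by 3.88, than in batch 2, by 2.62 (adjusted p = 0.00912).

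**Figure D5:**
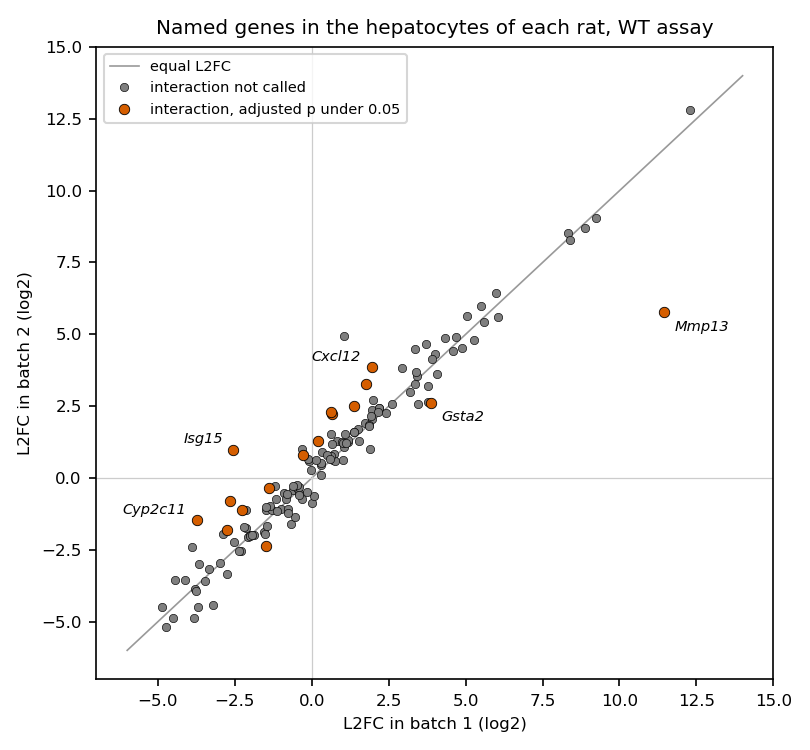
L2FC (log2) of naproxen 2000 µM against vehicle in batch 1 (x axis) and in batch 2 (y axis) for the genes picked by the naming rule in the WT assay, each point 1 gene. The grey line marks equal L2FC and filled orange points are genes whose interaction of batch and treatment had an adjusted p under 0.05; most genes lie near the line, and Mmp13, at 11.46 and 5.78, is farthest from it, its batch 1 value resting on vehicle wells without a read.

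By ST assay, 1074 of 1760 genes tested were called (61.0%), 544 higher and 530 lower. Of 1603 genes tested by both assays, 890 were called by both, and all 890 had the same sign. These shares describe the assay alone, since the lysates were the same. For Cyp4a1 the L2FC was 9.60 ± 0.44 by ST assay, for Ehhadh 7.97 ± 0.31, for Fabp1 5.56 ± 0.32, for Ddit3 3.47 ± 0.17 and for Serpind1 -3.28 ± 0.20. Of the lipid lists, 41 of 49 members tested by ST assay rose and 4 fell, and of the 4 lists of plasma protein genes 50 of 67 fell and 7 rose. Some sizes differed between the assays. Acaa1a, a peroxisomal thiolase, had an L2FC of 4.33 ± 0.18 by ST assay and 1.47 ± 0.10 by WT assay, Eci2, an isomerase of β-oxidation, 2.10 ± 0.09 by ST assay and 0.86 ± 0.08 by WT assay and Mbl2 -1.51 ± 0.35 by ST assay and -2.54 ± 0.11 by WT assay. The first 2 genes were chosen after their values were seen, and the difference between assays was not tested. The authors state that some genes are read by other probe sequences in each assay, which was not checked for these genes.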

How the data were processed

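The authors deposited whole-number read counts per TempO-Seq probe for each well, 22253 probes by WT assay and 2654 by ST assay, with no normalization. The submitters' processing notes name STAR 2.5.3a and build rn6. Wells were grouped by chemical, concentration and batch as labelled. Probes of one symbol were added, giving 20946 WT and 2604 ST symbols, and those averaging 10 counts or more across the wells were tested, as the authors filtered probes. No 2 wells had identical counts.

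In R 4.3.3, edgeR 4.0.16 fitted every treatment, with batch as a term, with TMM factors and the quasi-likelihood F test over all wells of an assay, and the Benjamini-Hochberg adjustment ran over all genes tested. L2FC is log2 of the fold change ± SE. Calls need an adjusted p under 0.05. DESeq2 1.42.0, which the authors used, was an alternative, along with RLE factors, no filter, single probes, no batch term, counts summed per rat, each batch alone, vehicle wells of the same plate, a fit of naproxen and vehicle wells only and each well left out in turn. The script was tested on simulated data. CPM were computed from counts and TMM library sizes over the genes tested. Ratios of summed counts have exact binomial 95% intervals.

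The lists and rules were chosen with earlier results of these data known. Named were the 10 largest L2FC in each direction among genes called in both batches with a mean of at least 50 counts, up to 4 genes per list called in both batches (8 for CYP1A2, CYP2C and UGT), up to 2 per list not called or against the list's median, and every tested gene of the CYP4A and prostaglandin lists. Acaa1a, Eci2, Crot, Cat, Plin2, Ppara, Cyp1a1, Hmox1, Gclc, Cdkn1a, Apoa1, Alb, C3 and Epcam were added after their values were seen. Some genes that the rule picked are not reported here. Promoter sequences are from the RefSeq table of build GRCr8.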

Additional observations from a re-analysis of the deposited data

Results flagged for a closer look

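Among the 146 genes the naming rule picked, the 6 vehicle wells of batch 2 held an outlying well by Dixon's test for 9, and chance gives about 1 in 20 genes. The outlying well was low for Mdm2, at 59.4 CPM (median of the 6 wells 71.3), for Fetub, at 2140 CPM (median of the 6 wells 2670), and for Hspb1, at 24.7 CPM (median of the 6 wells 32). It was high for Gstm3, at 65.4 CPM (median of the 6 wells 50), for Isg15, at 17.2 CPM (median of the 6 wells 7.01), and for Ptges3, at 16.1 CPM (median of the 6 wells 10). Among genes with few reads it was high for Abcc4, at 4.49 CPM (median of the 6 wells 2.28), for Slc10a1, at 3.33 CPM (median of the 6 wells 2.42), and for Acot1, at 0.167 CPM (median of the 6 wells 0). For Fetub, Gstm3 and Slc10a1 the vehicle wells with the outlying one included lay apart from all naproxen wells, as the levels given with these genes show.

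The L2FC differed between batches, by the edgeR test of the interaction, for 16 of the genes the naming rule picked. The values are L2FC of batch 1 minus batch 2. Mmp13 had 5.86 (adjusted p = 0.00661), a value that depends on the prior count since batch 1 vehicle wells had no read. Drug-metabolising and antioxidant genes among them were Cyp2c11 with -2.25 (adjusted p = 6.68e-07), Cyp2c22 with -1.51 (adjusted p = 0.000341), Cyp2c13 with -1.55 (adjusted p = 0.0399), Cyp4f4 with -1.04 (adjusted p = 0.0226), Gsta2 with 1.27 (adjusted p = 0.00912) and Gpx2 with -1.85 (adjusted p = 0.0195). Genes of fatty acid synthesis were Fasn with -1.1 (adjusted p = 4.51e-05) and Scd with -1.12 (adjusted p = 0.0421). Plasma protein genes were Fetub with -0.918 (adjusted p = 0.000643), C4bpb with -1.13 (adjusted p = 0.0289), C9 with -1.68 (adjusted p = 0.000281) and Cp with -1.08 (adjusted p = 0.000312). Immune genes were Cxcl12 with -1.91 (adjusted p = 7.05e-07), Tnfaip2 with 0.881 (adjusted p = 0.0222) and Isg15 with -3.52 (adjusted p = 0.0318), the last with 1 vehicle well of batch 1 far above the others.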

How the results depend on the processing

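The count of genes called by WT assay (5482) was 5155 to 5926 over other size factors, DESeq2, no filter, single probes, vehicle wells of the same plate and a fit of naproxen and vehicle wells only, and 5202 to 5386 when wells were left out one at a time. Well numbers do not pair wells, and the pairing is by rat, which the batch term holds; without this block 4823 genes were called by WT and 960 by ST assay. With an absolute L2FC of at least 1 as a second condition, the counts dropped to 1389 by WT assay, 387 by ST assay, 1357 in batch 1, 1585 in batch 2, 72 for the interaction, 1267 against 80 µM, 1066 against WY14643 and 95 for medium against vehicle. Without the filter 107 genes had a called interaction, against 168 with it, from a test over more genes. The median L2FC of all genes was 0.0171 with TMM, 0.000603 with RLE and 0.000198 with DESeq2.

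Of 146 named genes, 114 kept direction and side of the threshold under every alternative run on single genes, which were all but single probes and the condition on L2FC, and 134 whenever 1 well was left out. The L2FC changed sign in batch 1 alone for Bdh1 (0.0147), Fasn (-0.299), Acot13 (-0.0887), Ptges3 (-0.303), Ptgs1 (0.0674), Pla2g2a (-0.0105) and Hspa8 (-0.114), of which only Bdh1 was called in the joint fit. Pla2g2a also changed sign with vehicle wells of the same plate (-0.00992) and ranged from -0.0567 to 0.159 with 1 well left out. Isg15 turned to 0.983 in batch 2 alone, and with 1 well left out it ranged from -1.81 without naproxen well 3 of batch 2 to 0.583 without vehicle well 2 of batch 1. Calls lost when 1 naproxen well was left out were those of Bdh1, Phgdh and Xbp1. Leaving out vehicle well 6 of batch 2 also lost Phgdh and Xbp1. Calls gained by the edgeR test included Isg15 without naproxen well 3 of batch 2 (adjusted p = 0.0129). Without naproxen well 1 of batch 1, Hspa8 (adjusted p = 0.0429) and Fasn (adjusted p = 0.0473) were called higher. Rsad2 was called in each such fit, but without naproxen well 3 of batch 2 its L2FC was 2.81 (adjusted p = 0.000826). The causes were not tested. With 2 rats, each treatment gives 1 difference between animals per gene, and the fit summed per rat took its spread from all treatments together. Genes under a few CPM have a wide counting error.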

Other observations

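Outside the oxidation genes, naproxen 2000 µM and WY14643 200 µM also differed by gene group in the direct contrast, although their concentrations and plates differ. The background shares were 22.5% higher with naproxen and 22.5% lower. Of 27 tested ATF4 targets 14 were higher with naproxen and 3 lower, with Ddit3 at a difference of 1.95 ± 0.18 on the log2 scale and 57.2 to 79.4 CPM (median 67.1) in WY14643 wells. Of 22 NF-κB feedback genes and chemokines 12 were higher with naproxen and 1 lower. Cxcl10, a chemokine for T cells, differed by 3.10 ± 0.42 and had 14.7 to 25.7 CPM (median 18.5) with WY14643. Sterol and fatty acid synthesis lay the other way, as of 20 cholesterol synthesis genes 0 were higher with naproxen and 15 lower, and of 16 fatty acid synthesis genes 0 were higher with naproxen and 11 lower. Among 17 p53 targets 10 were higher with naproxen and 3 lower.

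Of 20 tested cholesterol synthesis genes, 7 were lower at 2000 than at 80 µM and 1 was higher (median difference -0.10 on the log2 scale), where 23.7% of all genes were lower and 23.7% higher. The 1 that was higher was Insig1, with 1249 to 2014 CPM (median 1699) at 80 µM and a difference of 1.00 ± 0.15. Serpind1 had 79.1 to 246 CPM (median 183) at 80 µM and 10.6 to 41.8 CPM (median 25.8) with WY14643, so the 80 µM wells overlapped vehicle and the WY14643 wells did not.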
